A study of Mus musculus with 6 samples.

Results

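Sterol regulatory element-binding proteins (SREBPs) are the transcription factors that switch on cholesterol and fatty acid synthesis, and the expression of 35 genes of this pathway was measured in cultured mouse microglia with and without Cre-mediated deletion of Nr1d1, the gene of the clock repressor REV-ERBα. The genes were taken by symbol from a list set out in pathway order: 20 enzymes of cholesterol synthesis, 6 regulators including the sterol carrier Stard4, and 9 enzymes of fatty acid synthesis, elongation and desaturation. All 35 were found among the 55487 genes counted, and all 35 were among the 11429 genes abundant enough to be tested.

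SREBPs are made as precursors in the membrane of the endoplasmic reticulum, where SCAP escorts them. When sterols are plentiful, INSIG proteins hold SCAP in place. When sterols run low, SCAP carries the precursor to the Golgi, proteases release its transcription factor part, and genes of the pathway are switched on, Insig1 among them. SREBP2 is best known for driving cholesterol synthesis and SREBP1 for driving fatty acid synthesis. REV-ERBα represses transcription at DNA elements that it shares with ROR receptors, and in liver it is known to act on SREBP activity through Insig2. In the brain, cholesterol is made locally, largely by glia.

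The 6 RNA-seq libraries came from primary cortical microglia of CAG::CreERT2; Nr1d1 fl/fl mouse pups aged postnatal days 1 to 3, with 3 Cre− and 3 Cre+ cultures numbered 1 to 3 in each group. All 6 carried the floxed Nr1d1 alleles, and all 6 were exposed to 4-hydroxytamoxifen (4-OHT) at 1.5 µM for 2 days. Any effect of the drug apart from Cre was thus common to both groups. Only the Cre+ cultures carried CreERT2, which 4-OHT switches on, so effects of Cre activity and of Nr1d1 deletion cannot be told apart. The question was which transcripts differ once REV-ERBα is deleted in microglia. CAG is a promoter active in nearly every cell type, and the cells were floating microglia collected from mixed glial cultures that had been grown with GM-CSF, a growth factor for myeloid cells. The sample labels do not say which pups gave each culture, so the p-values below measure the spread between these 6 libraries, which may be partly technical.

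Counts on genes summed to 87545868 to 93942161 per library in Cre− and to 93701215 to 110909129 in Cre+ cultures. Ribosomal RNA genes, removed before the test, took 1.22% to 1.27% of the counts in Cre− and 0.791% to 1.12% in Cre+ cultures. Nr1d1 was low in every culture, with CPM values of 2.35, 1.20 and 1.64 in Cre− cultures (counts scaled to a library total of 1000000, with library sizes normalized by the TMM method) and 1.00, 0.945 and 1.08 in Cre+ cultures. The groups did not overlap, and its log2 fold change of −0.77 (SE 0.25) had an adjusted p of 0.094. The counts are over the whole gene, including exons outside the deleted part. The 10 microglia and macrophage markers together reached 8485 to 8926 CPM in Cre− and 8368 to 8623 CPM in Cre+ cultures. That sum was mostly Cd68 (means of 4002 and 3965 CPM), Tyrobp (2457 and 2275 CPM) and Trem2 (1614 and 1616 CPM). The homeostatic markers P2ry12 (at most 1.03 CPM) and Tmem119 (at most 3.55 CPM) were low. Cx3cr1 (at most 13.8 CPM) and Aif1, the gene of the marker IBA1 (at most 3.25 CPM), were low as well. All 6 fibroblast and mural cell markers, 6 of 7 astrocyte markers, 5 of 7 oligodendrocyte lineage markers, 3 of 5 neuron markers and 3 of 4 endothelial markers lay below 1 CPM in all 6 libraries. Summed neuron markers were 2.40 to 3.19 CPM in Cre− and 1.93 to 2.06 CPM in Cre+ cultures, and summed fibroblast and mural markers were 1.10 to 2.20 CPM and 0.546 to 0.623 CPM. Summed levels overlapped between the groups for astrocytes (12.9 to 14.1 CPM in Cre− and 11.3 to 15.0 CPM in Cre+, mostly Aldh1l1), the oligodendrocyte lineage (26.9 to 35.3 CPM and 29.2 to 30.1 CPM, mostly Mbp), and just touched for endothelial cells (1.41 to 2.37 CPM and 1.18 to 1.41 CPM). Of the 9 microglia markers tested, Itgam was called higher in Cre+ (log2 fold change 0.18, adjusted p = 0.046). Depth was mostly higher, and the ribosomal share and the neuron and fibroblast sums were lower, in Cre+ cultures, and their part in the results below was not tested.

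Of the 35 genes, 3 passed the test. Sc5d, Msmo1 and Elovl5 rose, by 30.6%, 14.7% and 14.4%, and 0 members fell. These 3 genes are 8.57% of the 35 members, beside 2.50% of all genes tested that were called higher in Cre+ cultures at an adjusted p of 0.05 (edgeR's quasi-likelihood test with Benjamini-Hochberg adjustment over the 11429 genes). The share called lower was 2.56% of all genes tested. At an unadjusted p of 0.05, 12 members were higher and 2 lower, beside 9.69% and 9.46% of all genes tested. In bulk RNA, fewer cells making a transcript and less of it per cell cannot be told apart.

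The log2 fold change was above 0 in 28 of the 35 members and in 50.6% of all genes tested. Its median was 0.14 over the members and 0.00 over all genes tested. In 12 members all 3 Cre+ cultures lay above all 3 Cre− cultures, and in 2 members all 3 lay below. Over all genes tested, such a separation was found in 12.3% (higher) and 11.7% (lower). Genes of 1 pathway are switched on together and are not independent measurements of the deletion.

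**Figure D1:**
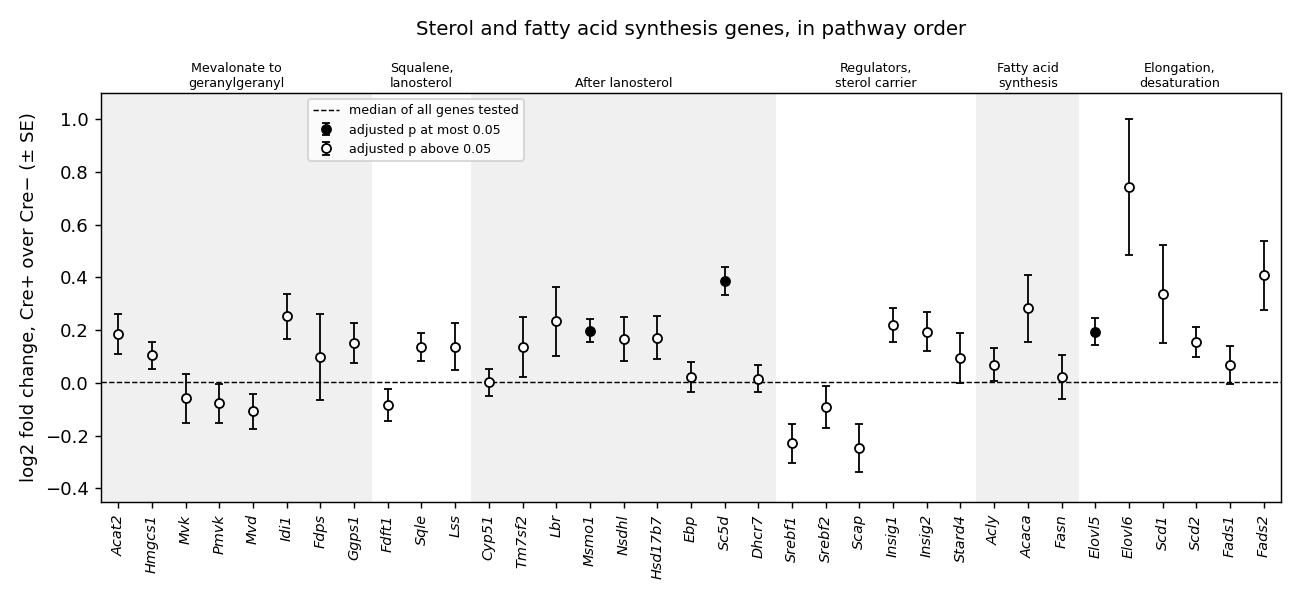
Log2 fold change of Cre+ over Cre− cultures for the 35 genes (y axis, ± SE, 3 cultures per group) against their order in the pathway (x axis), with filled points for an adjusted p of at most 0.05 and the dashed line at the median of all genes tested. Sc5d, Msmo1 and Elovl5 are the 3 filled points, the 9 steps after lanosterol and the 9 fatty acid genes all lie above 0, and Srebf1, Srebf2 and Scap lie below 0.

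Promoters of the members were read to show what these genes share in sequence. The stretches below lie upstream of the start site of 2 called genes, Sc5d and Elovl5, of Insig1, the classic sterol-regulated gene of the list, and of Hmgcs1, which holds the core of a sterol regulatory element in the window searched. Capitals mark CCAAT or its complement ATTGG (the letters that the factor NF-Y binds), CACGTG (an E-box, bound by SREBP1 and by clock factors) and, in Hmgcs1, TCACCCCAC (a match to TCACNCCAC, the SREBP element core). Each is given 5′ to 3′ on the strand of the gene, from RefSeq on GRCm38.p6, and stops before the first transcribed base in the annotation.
Sc5d, chr9:42264301-42264550, minus strand: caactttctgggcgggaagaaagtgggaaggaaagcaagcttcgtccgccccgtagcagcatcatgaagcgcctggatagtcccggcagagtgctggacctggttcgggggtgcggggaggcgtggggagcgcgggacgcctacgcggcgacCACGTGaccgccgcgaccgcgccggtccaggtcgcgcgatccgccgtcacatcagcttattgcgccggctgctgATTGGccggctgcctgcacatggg
Elovl5, chr9:77917115-77917363, plus strand: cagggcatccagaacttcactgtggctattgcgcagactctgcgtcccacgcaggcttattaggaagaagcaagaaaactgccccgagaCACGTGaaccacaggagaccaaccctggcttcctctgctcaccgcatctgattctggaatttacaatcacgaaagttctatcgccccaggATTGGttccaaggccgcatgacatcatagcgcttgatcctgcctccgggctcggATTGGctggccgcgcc
Insig1, chr5:28071162-28071362, plus strand: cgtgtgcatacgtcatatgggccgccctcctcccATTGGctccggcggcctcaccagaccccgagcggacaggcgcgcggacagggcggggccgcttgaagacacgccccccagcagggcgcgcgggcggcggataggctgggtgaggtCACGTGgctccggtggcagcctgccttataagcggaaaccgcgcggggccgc
Hmgcs1, chr13:119690101-119690350, plus strand: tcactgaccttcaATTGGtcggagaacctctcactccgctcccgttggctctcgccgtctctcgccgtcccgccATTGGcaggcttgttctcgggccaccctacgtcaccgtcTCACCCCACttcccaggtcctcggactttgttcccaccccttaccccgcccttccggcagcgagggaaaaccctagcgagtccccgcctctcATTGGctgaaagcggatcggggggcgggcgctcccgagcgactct
The first 3 hold CACGTG, at 98, 161 and 101 bases before the RefSeq start, and all 4 hold CCAAT or its complement. Msmo1 held 3 CCAAT motifs, at 160, 96 and 55 bases before its RefSeq start, and no CACGTG. The Msmo1 window lies mostly inside a transcript of the annotation and is not shown.

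RefSeq promoters were matched for 28 of the 35 members, and the 250 bases before each start were searched on both strands. A gene with several start sites counted once if any of them had a match. Fdps, Fdft1, Sqle, Stard4, Scd1, Scd2 and Fads1 had no entry. CCAAT was found in 22 of the 28 members (78.6%), 16 of the 17 cholesterol synthesis enzymes among them, against 40.6% of the 8370 tested genes with a promoter and 33.8% of all 32851 promoters. At least 2 copies of CCAAT were present in 14 members, and in 15.7% of the tested genes. CACGTG was found in Sc5d, Elovl5, Insig1, Dhcr7, Hsd17b7 and Scap (21.4%), against 10.5% of the tested genes and 6.02% of all promoters. GGGCGG, the core of the element that SP1 binds, was in 78.6% of the members, 64.7% of the tested genes and 32.7% of all promoters. Of the 28 members searched, TCACNCCAC was present in Hmgcs1 alone, and in 1.25% of the tested genes and 1.05% of all promoters. The motifs could overlap each other. For REV-ERBα itself, TAGGTCA was present in Dhcr7 alone of these 28, against 1.91% of the tested genes and 2.23% of all promoters. These are matches of letters in a short window, not measured binding.

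Among the 9 enzymes that convert lanosterol to cholesterol, the log2 fold change was above 0 in all 9, with a median of 0.17, and 2 passed the test. Sc5d (ENSMUSG00000032018, chromosome 9, 42251595 to 42264256 on GRCm38) encodes the desaturase that makes the direct precursor for the last reductase. It was at 80.5, 85.8 and 83.7 CPM in Cre− and at 115, 103 and 109 CPM in Cre+ cultures. Every Cre+ culture was above every Cre− culture, by more than the spread within either group (83.3 ± 2.64 against 109 ± 5.92 CPM, SD, n = 3 each). Its log2 fold change was 0.39 (SE 0.05) with an adjusted p of 0.000565, which placed it at rank 65 by p among all genes tested and at rank 29 among those called higher.

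Msmo1 (ENSMUSG00000031604, chromosome 8, 64718139 to 64733792 on GRCm38) encodes a monooxygenase that oxidizes methyl groups on the sterol ring. Its levels were 176, 184 and 184 CPM in Cre− and 207, 207 and 209 CPM in Cre+ cultures. The groups did not overlap, and the 3 Cre+ cultures were nearly equal (181 ± 4.40 against 208 ± 0.905 CPM). Its log2 fold change was 0.20 (SE 0.04) with an adjusted p of 0.015. Without Cre− culture 1 it was 0.17 with an adjusted p of 0.073, so the call was lost. With any other culture left out it was 0.19 to 0.21, with an adjusted p of 0.0401 to 0.0496, close to the threshold of 0.05. Nsdhl and Hsd17b7, which complete the same demethylation, gave log2 fold changes of 0.17 (SE 0.08, adjusted p = 0.30) and 0.17 (SE 0.08, adjusted p = 0.27). Hsd17b7 did not overlap between the groups (18.0 ± 1.16 against 20.3 ± 0.536 CPM), whereas Nsdhl did, with Cre− culture 2 at 36.7 CPM above all 3 Cre+ cultures.

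The 5 other steps after lanosterol did not pass the test. Dhcr7, the reductase that follows Sc5d and forms cholesterol, averaged 215 ± 11.9 CPM in Cre− cultures and 218 ± 8.27 CPM in Cre+ cultures (log2 fold change 0.02, SE 0.05). The lanosterol demethylase Cyp51 was at 123 ± 7.58 and 124 ± 0.172 CPM (0.00, SE 0.05), and the sterol isomerase Ebp at 70.0 ± 3.32 and 71.1 ± 3.25 CPM (0.02, SE 0.06). The adjusted p of these 3 genes was at least 0.89. Their SEs were 0.05 to 0.06 on the same scale on which Sc5d rose by 0.39. The sterol reductases Tm7sf2 and Lbr, which can carry out the same step, gave 0.14 (SE 0.11) and 0.23 (SE 0.13), with adjusted p of 0.57 and 0.36, and both overlapped between the groups.

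Of the 8 mevalonate and isoprenoid enzymes, which build the carbon units of sterols, 0 passed the test in either direction (0 by DESeq2 or limma). At an unadjusted p of 0.05, 2 were higher, beside 9.69% of all genes tested. The median log2 fold change was 0.10, and 5 were above 0. Acat2, Hmgcs1, Idi1 and Ggps1 did not overlap between the groups and were higher in Cre+, a separation found in 12.3% of all genes tested. Hmgcs1, which makes HMG-CoA, was at 83.7, 88.3 and 82.6 CPM in Cre− and 89.5, 92.3 and 92.0 CPM in Cre+ cultures. Idi1, the isomerase that supplies the unit for chain growth, had the largest log2 fold change of the 8, at 0.25 (SE 0.09, adjusted p = 0.11), from 15.6 ± 0.945 to 18.6 ± 0.780 CPM. Acat2, the cytosolic thiolase, gave 0.19 (SE 0.08, adjusted p = 0.19), and Ggps1, which opens the branch to geranylgeranyl groups, gave 0.15 (SE 0.08, adjusted p = 0.29). The kinases Mvk and Pmvk and the decarboxylase Mvd act one after another, and their values were −0.06, −0.08 and −0.11, with adjusted p of 0.80, 0.63 and 0.42. Fdps, which makes farnesyl diphosphate, gave 0.10 (SE 0.16).

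At the 3 steps from farnesyl diphosphate to lanosterol 0 genes passed (0 by DESeq2 or limma), and the groups overlapped in all 3. At an unadjusted p of 0.05, 1 gene (Sqle) was higher, beside 9.69% of all genes tested. Sqle, the epoxidase often taken as a rate-limiting step of sterol synthesis, was at 75.6, 81.3 and 75.4 CPM in Cre− and 81.1, 86.7 and 87.5 CPM in Cre+ cultures. Only Cre− culture 2 reached into the Cre+ range (log2 fold change 0.14, SE 0.05, adjusted p = 0.18). Lss, the cyclase that forms lanosterol, gave 0.14 (SE 0.09). Squalene synthase, Fdft1, averaged 75.4 ± 5.13 CPM in Cre− cultures and 71.2 ± 2.84 CPM in Cre+ cultures, with a log2 fold change of −0.08 (SE 0.06).

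Of the 6 regulators, 0 passed the test. At an unadjusted p of 0.05, 2 were higher and 2 lower, beside 9.69% and 9.46% of all genes tested. DESeq2's Wald test called 1 higher and 1 lower, beside 3.60% and 4.15% of all genes tested. The median log2 fold change was 0.00, with 3 genes above 0 and 3 below. The genes of the SREBPs and of their escort lay below 0, and the genes of the INSIG proteins, which retain them, lay above. Srebf1 was at 40.6, 35.6 and 38.3 CPM in Cre− and 31.1, 35.3 and 31.3 CPM in Cre+ cultures. The groups came close at 35.6 and 35.3 CPM without overlapping, and the log2 fold change was −0.23 (SE 0.07, adjusted p = 0.092). Scap was at 16.0, 17.9 and 16.4 CPM in Cre− and 13.5, 14.9 and 13.9 CPM in Cre+ cultures. All 3 Cre+ cultures were below the Cre− cultures (−0.25, SE 0.09, adjusted p = 0.14). Srebf2 was at 44.0, 48.0 and 47.9 CPM in Cre− and 38.5, 49.1 and 43.8 CPM in Cre+ cultures, and its groups overlapped over most of their range (−0.09, SE 0.08, adjusted p = 0.59).

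Insig1, a target of SREBP as well as its brake, was at 105, 130 and 123 CPM in Cre− and 142, 137 and 138 CPM in Cre+ cultures. The groups did not overlap, but Cre− culture 1 stood below the other two, and the log2 fold change of 0.22 (SE 0.06, adjusted p = 0.066) was 0.13 without that culture. Without Cre− culture 2 it was 0.29, with an adjusted p of 0.026. Insig2, the INSIG gene known as a REV-ERBα target in liver, was at 34.1, 38.3 and 39.1 CPM in Cre− and 45.4, 39.3 and 42.9 CPM in Cre+ cultures. The lowest Cre+ culture was just above the highest Cre− culture, and the log2 fold change was 0.19 (SE 0.07, adjusted p = 0.16). Stard4, which carries cholesterol between membranes, gave 0.09 (SE 0.09, adjusted p = 0.65).

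**Figure D2:**
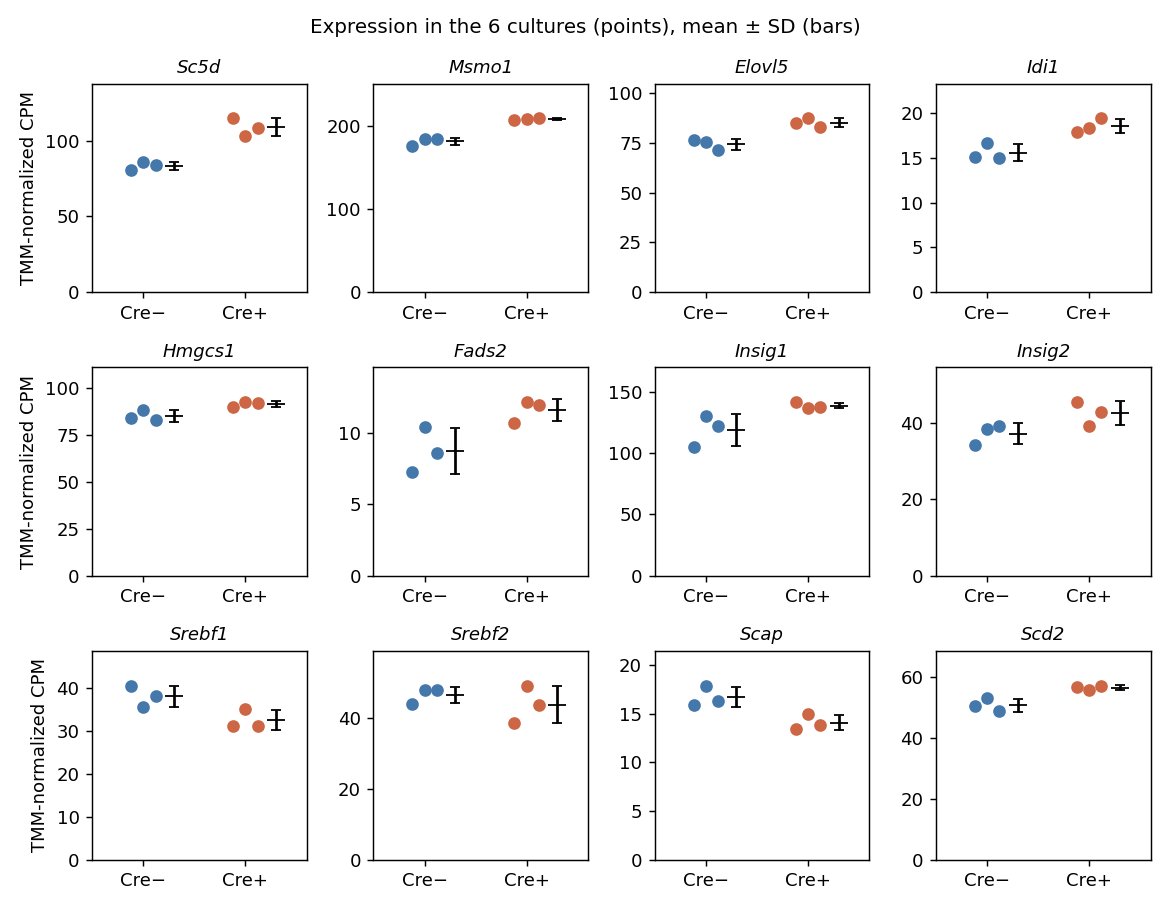
TMM-normalized CPM (y axes, from 0) of 12 genes in the 3 Cre− and 3 Cre+ cultures (points), with mean ± SD beside them. Sc5d, Msmo1 and Elovl5 are separated by more than the spread within a group, whereas Srebf2 overlaps and Srebf1 and Insig2 nearly touch.

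The 3 enzymes that make palmitate from citrate did not pass the test (0 by DESeq2 or limma), and each overlapped between the groups. Acaca alone was higher at an unadjusted p of 0.05, beside 9.69% of all genes tested. Acly, which makes cytosolic acetyl-CoA, averaged 92.0 ± 4.81 CPM in Cre− cultures and 96.5 ± 8.14 CPM in Cre+ cultures (log2 fold change 0.07, SE 0.06). Fasn, the fatty acid synthase, was at 24.4 ± 2.33 and 24.7 ± 1.49 CPM (0.02, SE 0.08). Acaca, the carboxylase that commits acetyl-CoA to fatty acid synthesis, was at 8.41 ± 1.32 and 10.2 ± 0.922 CPM (0.28, SE 0.13, adjusted p = 0.24).

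The 6 genes that lengthen fatty acids or put in further unsaturated bonds all had a log2 fold change above 0, with a median of 0.27, and Elovl5 passed the test. Elovl5 (ENSMUSG00000032349, chromosome 9, 77917364 to 77984519 on GRCm38) encodes the elongase of polyunsaturated fatty acids. It was at 76.4, 75.3 and 71.3 CPM in Cre− and 84.9, 87.3 and 83.0 CPM in Cre+ cultures. The groups did not overlap, and the log2 fold change of 0.19 (SE 0.05) had an adjusted p of 0.044. That call was lost when any 1 of the 6 cultures was left out, with log2 fold changes of 0.16 to 0.21. Elovl6, which elongates palmitate, was close to the lower limit of the test, at 1.26, 0.855 and 1.42 CPM in Cre− and 2.52, 1.41 and 1.98 CPM in Cre+ cultures. Its log2 fold change was the largest of all 35 members, at 0.74, but its SE of 0.26 was also the largest, 1 Cre+ culture lay below the highest Cre− culture, and the adjusted p was 0.12.

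Fads1 and Fads2 are neighbouring genes for desaturases of the same polyunsaturated fatty acid route. Fads2, which takes the first step of that route, was at 7.22, 10.4 and 8.54 CPM in Cre− and 10.7, 12.1 and 11.9 CPM in Cre+ cultures. Its groups were separated only narrowly (log2 fold change 0.41, SE 0.13, adjusted p = 0.089). Without Cre− culture 2, the highest of its group, it was 0.55 with an adjusted p of 0.027. Fads1 was at 49.6, 51.5 and 42.2 CPM in Cre− and 48.1, 50.9 and 51.2 CPM in Cre+ cultures, with overlap (0.07, SE 0.07, adjusted p = 0.68). Scd1 and Scd2 encode the desaturases that make monounsaturated fatty acids. Scd2 was at 50.5, 53.1 and 48.8 CPM in Cre− and 56.8, 55.7 and 57.0 CPM in Cre+ cultures, without overlap (0.15, SE 0.06, adjusted p = 0.15). Scd1 was at 3.17, 3.98 and 3.05 CPM in Cre− and 3.56, 3.89 and 5.45 CPM in Cre+ cultures, and its highest value came from 1 Cre+ culture (0.34, SE 0.19, adjusted p = 0.35).

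Levels can be compared between genes only per length, here as CPM per kb of exon. On that scale Insig1 (38.5) and Dhcr7 (37.0) had the highest levels in Cre− cultures, followed by Ebp (30.3), Msmo1 (29.5) and Cyp51 (27.9). The lowest were Fdps (0.808), Scd1 (0.696), Acaca (0.493) and Elovl6 (0.183). Sc5d stood at 17.1 ± 0.542 in Cre− and 22.4 in Cre+ cultures. Between paralogues, Insig1 exceeded Insig2 by 3.60-fold in Cre− and 3.67-fold in Cre+ cultures, and Scd2 exceeded Scd1 by 13.4-fold and 11.8-fold. Elovl5 exceeded Elovl6 by 115-fold in Cre− and 78.9-fold in Cre+ cultures. The ratio of Fads1 to Fads2 was 4.70, 3.39 and 3.39 in Cre− and 3.08, 2.88 and 2.94 in Cre+ cultures, so that the 3 Cre+ values were below the Cre− values. The levels of Srebf1 and Srebf2 were close to each other, with a ratio of Srebf2 to Srebf1 of 0.958 in Cre− and 1.05 in Cre+ cultures. None of these ratios was tested.

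**Figure D3:**
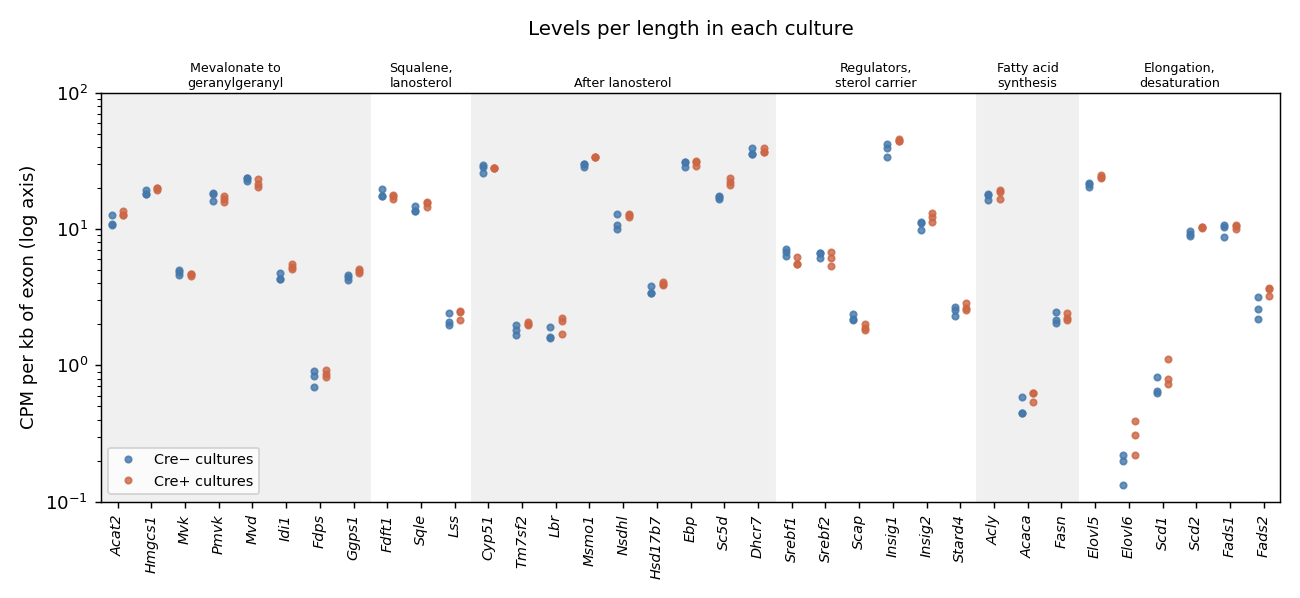
CPM per kb of exon (y axis, log scale) of the 35 genes in each of the 3 Cre− and 3 Cre+ cultures (points), in pathway order. Levels range from 0.183 (Elovl6) to 38.5 (Insig1) in the means of Cre− cultures, and the distance between genes is far larger than the distance between the groups.

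Added together, the 20 cholesterol enzymes made up 1147, 1180 and 1140 CPM in Cre− and 1220, 1232 and 1257 CPM in Cre+ cultures, a ratio of means of 1.07. Much of that difference came from the pair that passed the test. Without Sc5d and Msmo1 the sums were 891 ± 18.6 CPM and 920 ± 20.4 CPM (ratio 1.03), and the groups overlapped, with Cre− culture 2 at 910 CPM and Cre+ culture 1 at 899 CPM. Abundant genes weigh most in such a sum. With equal weight per gene, the mean log2 ratio of these 18 genes to their Cre− mean did not overlap. It was −0.019, 0.021 and −0.0021 in Cre− and 0.067, 0.072 and 0.11 in Cre+ cultures, and this difference was not tested. The 9 fatty acid enzymes summed to 311 ± 13.6 CPM in Cre− and 341 ± 9.04 CPM in Cre+ cultures (ratio 1.10). No culture held the lowest value in most of the members. The lowest of the 6 values fell in Cre− culture 1 for 11 members, in Cre− culture 3 for 11, in Cre− culture 2 for 6, in Cre+ culture 1 for 6, in Cre+ culture 2 for 1 and in Cre+ culture 3 for 0. Cre+ culture 3 held the highest value for 10 members.

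Some members share sequence with other genes, and their counts are uncertain for that reason. The library kit does not mark strand, so that reads of overlapping genes cannot be separated. Of the 4227 exon bases of Fdft1 in the annotation, 774 overlap the cathepsin gene Ctsb on the other strand, whose level was 26283 CPM in Cre− cultures and 28933 CPM in Cre+ cultures. Fdps resembles 6 other gene records, and 1 of them, Gm3571 (98.9% identity over 1062 bases), was counted at 4.25 and 4.62 CPM, above the 3.40 and 3.64 CPM of Fdps itself. Acat2 shares 97.7% identity over 1477 bases with Acat3, at 0.651 and 0.684 CPM. Over 175 bases it also shares 97.1% identity with Tcp1, a chaperonin gene whose level was 129 CPM in Cre− cultures and 141 CPM in Cre+ cultures, above the 29.0 and 33.0 CPM of Acat2. Acaca shares 99.2% over 6118 bases with Gm5182, at 0.244 and 0.165 CPM. Elovl6 resembles 4 gene records that together held 0.455 and 0.318 CPM. Sc5d, Msmo1 and Elovl5 had no other gene record with at least 95% identity over at least 100 bases and no overlapping exon.

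The number of members called higher depended on how the table was analysed. Across 13 alternatives it ran from 1 to 9, while the share of all genes called higher ran from 1.33% to 3.60%, and the gene called in all 13 was Sc5d, with a log2 fold change of 0.35 to 0.46. Msmo1 was called in 12 and Elovl5 in 5. DESeq2's Wald test called 5, adding Insig1 (adjusted p = 0.033) and Fads2 (adjusted p = 0.039), where 3.60% of all genes tested were called higher. It also called Srebf1 lower (adjusted p = 0.037), where 4.15% were called lower. The fit without a filter on low counts called 9, where 1.94% of 43842 genes were called higher. In that fit the median of the genes shifted up by 0.08 on the log2 scale, and the median of the 35 members stood at 0.22. Of the 35 members, 28 kept their sign under all 13 alternatives, and the other 7 crossed 0 in at least 1 of them, by at most 0.048.

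**Figure D4:**
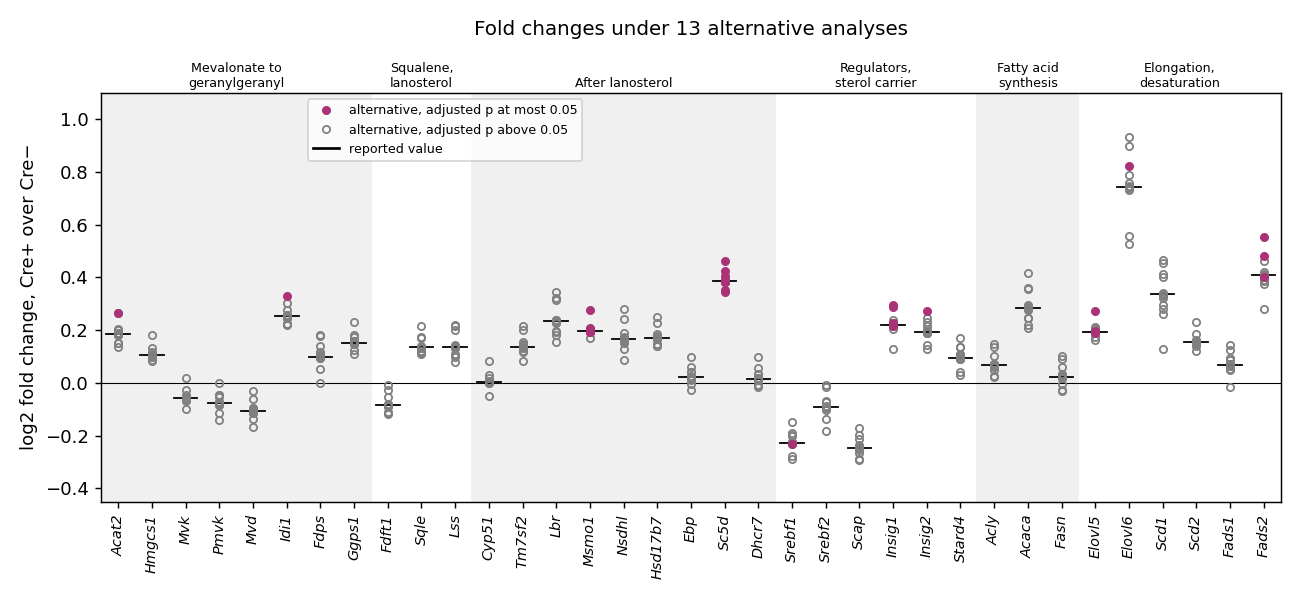
Log2 fold change of each of the 35 genes (y axis) under the 13 alternative analyses (circles, filled where the adjusted p was at most 0.05), with a bar at the reported value, in pathway order. Sc5d is filled throughout, Msmo1 in 12 of 13 and Elovl5 in 5 of 13, and 10 genes are filled at least once.

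Other genes of the pathway were taken from 6 lists. Of 54 such genes 46 were tested, and 0 were called higher and 1 was called lower, beside 2.50% and 2.56% of all genes tested, with the same result by DESeq2 and limma. At an unadjusted p of 0.05, 2 were higher and 3 lower, beside 9.69% and 9.46% of all genes tested. The single call lower is a share near that of all genes tested. The median of their log2 fold changes was 0.02. Me1, the malic enzyme that supplies NADPH for fatty acid synthesis, fell from 2.55, 2.80 and 3.00 CPM in Cre− to 1.94, 1.51 and 1.37 CPM in Cre+ cultures. The groups did not overlap, and the log2 fold change was −0.79 (SE 0.20, adjusted p = 0.034). The lists without a called gene were SREBP processing and sterol-regulated degradation (10 tested, median 0.03), other sterol pathway genes (7 of 8 tested, 0.02), NADPH supply (5 tested, −0.03), isoprenoid use (13 tested, 0.03) and oxysterol formation (1 of 4 tested, 0.04). Of the 14 other fatty acid genes, Me1 among them, 10 were tested, with a median of 0.02. In the NADPH list Pgd and Taldo1, enzymes of the pentose phosphate pathway, lay lower in all 3 Cre+ cultures, with log2 fold changes of −0.10 (SE 0.04, adjusted p = 0.14) and −0.12 (SE 0.04, adjusted p = 0.092).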

How the data were processed

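RNA from 3 Cre− and 3 Cre+ microglia cultures was amplified with a SMARTer kit before sequencing. The deposited counts are whole reads per Ensembl gene, with no normalization by the authors. The submitters' processing notes name STAR 2.7.9a, featureCounts 2.0.3 and GRCm38, and the methods of the paper name other versions of both tools. The deposited CPM and FPKM equal these counts divided by the library total and, for FPKM, by gene length, and were used only to check the unit. Symbols came from GENCODE M21, which did not match 260 genes with 0.00257% of the counts.

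After removal of 356 ribosomal RNA genes, a gene was kept if it exceeded 1 CPM in 4 or more libraries, and edgeR 4.0.16 was applied (quasi-likelihood test, TMM, no covariates), with Benjamini-Hochberg adjustment over all 11429 genes and a threshold of 0.05. The SE is the log2 fold change over the square root of F. The coefficient of variation between cultures was 10.0% at the common dispersion. Libraries of a group differed by 18.8 to 25.8 times counting noise (chi-square over its degrees of freedom), so none was another library sequenced again. This measure cannot show whether they came from separate pups. The pipeline was tested on simulated data. Alternatives used DESeq2 1.42.0, limma 3.58.1, other filters and scalings, a replicate block, and each library left out. Copies were searched with blastn 2.17.0. All 35 members were named by rule, with values in each library for called members, regulators other than the sterol carrier Stard4, and paralogue pairs. Hmgcs1, Sqle, Pgd and Taldo1 were singled out after their values were seen. The members, lists and motifs were chosen with earlier results of these data known.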

Additional observations from a re-analysis of the deposited data

How the results depend on the processing

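Against 3 members called higher and 0 lower, the fit without a filter on low counts called 9 and 0, DESeq2's Wald test 5 and 1 (Srebf1), library totals 4 and 0, DESeq2's size factors 2 and 0, limma's voomWithQualityWeights 3 and 0, and a filter of 1 CPM in 3 libraries 3 and 0. Leaving out each culture gave 1 to 4 higher and 0 lower: 1 without Cre− culture 1, 4 without Cre− culture 2 (Fads2 and Insig1 joined, Elovl5 was lost) and 2 in the other 4 fits. The count over all genes tested moved from 579 to 1528 without the filter, to 886 with DESeq2's Wald test and to 317 to 448 with a culture left out. Same-numbered cultures did not deviate together (correlations 0.00, −0.04 and −0.06), so the numbers were not taken as pairs; with a replicate block 2 members (Sc5d and Msmo1) and 430 genes were called, and Elovl5 had an adjusted p of 0.085. Of 455 values of single genes, 14 changed sign, none beyond 0.048 in size. They were Mvk without the filter (0.020), Cyp51 with DESeq2's size factors (−0.0016) and Wald test (−0.0016), and 11 values with a culture left out, for which the ranges were −0.0014 to 0.18 (Fdps), −0.048 to 0.030 (Cyp51), −0.025 to 0.058 (Ebp), −0.016 to 0.055 (Dhcr7), −0.033 to 0.092 (Fasn) and −0.017 to 0.12 (Fads1). The causes were not tested. Raw counts of the members ran from 79 (Elovl6) to 23357 (Dhcr7) per library, and Elovl6, Fdps and Scd1 rest on the fewest reads and have the largest SEs. Groups of 3 are too small to test a single culture as standing apart.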
